A study of Mus musculus with 42 samples.

Results

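Blood of 3xTg-AD mice was compared with blood of C57BL/6 mice after the same stimulation, anodal transcranial direct current stimulation (tDCS) through an epicranial electrode over the hippocampus. The comparison takes in the 11 mice of 6 months of age that the labels give as tDCS with a hippocampal electrode, 8 of them 3xTg-AD (mice M, N, Q, T, Z, AL, AM and AN) and 3 of them C57BL/6 (mice U, V and X), out of 42 mice in the series. All genes of the count table were taken. The 3xTg-AD mice carry mutant human transgenes, among them APP with the Swedish change and MAPT with P301L, on a mixed C57BL/6 and 129 background, and the C57BL/6 mice carry none of these. Strain background and transgenes therefore cannot be told apart here. The study's methods give daily sessions on consecutive days before blood was drawn, and state the sex of the 3xTg-AD mice only, as male. Reads of the Y-linked genes Ddx3y, Eif2s3y, Kdm5d and Uty were present in all 11 libraries.

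In tDCS a weak constant current between an electrode on the head and a second electrode on the body shifts the excitability of the neurons below. The transgenes of the 3xTg-AD line are driven by neuronal or knocked-in promoters and produce amyloid and tau pathology in the brain, while whole blood holds red cell precursors, platelets, granulocytes, monocytes and lymphocytes, whose messenger RNA is read together. Laboratory strains also differ at many loci in the genome itself, so that a gene or its processed copy can be present, changed or silent in a strain whatever the treatment. In bulk blood, fewer cells of a type and less RNA per cell cannot be told apart.

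The libraries held 15909207 to 37747255 reads in the 3xTg-AD mice and 23824919 to 24758671 in the C57BL/6 mice. Globin transcripts had been depleted, and haemoglobin genes still took 17.5% to 44.6% of the reads in 3xTg-AD mice and 17.7% to 25.6% in C57BL/6 mice (means 32.2% and 22.8%, two-sided exact permutation test, p = 0.164, adjusted over 4 library measures 0.327). Genes of the mitochondrial genome took 4.84% to 9.12% of the reads in 3xTg-AD mice and 9.06%, 14.6% and 14.2% in C57BL/6 mice U, V and X (means 7.25% and 12.6%, exact permutation test, p = 0.0121, adjusted 0.0485). The smallest p that the divisions of 8 and 3 mice allow is 0.00606. Within these mice the mitochondrial share thus moved with the strain, and its part in the differences given here was not tested beyond the fit that takes it as a covariate. In other groups the means of 3xTg-AD and C57BL/6 mice were 7.21% and 9.18% (hippocampal sham, 6 months), 5.03% and 5.29% (prefrontal tDCS) and 5.99% and 8.73% (sham, 3 months). Levels below are CPM, read counts scaled to the size of the library with TMM factors over the 42 mice, and differences are log2 fold changes of 3xTg-AD over C57BL/6 with their standard errors (SE), called at an adjusted p under 0.05 in edgeR's quasi-likelihood test over all genes tested.

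Of 15607 genes tested, 219 (1.4%) differed between the strains, 118 (0.756%) higher and 101 (0.647%) lower in 3xTg-AD mice. An unadjusted p under 0.05 in the same test was held by 1989 genes (12.7%). The fold change was positive in 8425 genes and negative in 7182. A difference of more than 2 on the log2 scale was held by 87 of the 118 and by 58 of the 101. The 8 and the 3 mice did not overlap in CPM in 115 of the 118 and in 95 of the 101 genes, where 797 of all genes tested (5.11%) had ranges that did not overlap. Among the genes called higher, 11 had no read in any C57BL/6 mouse, and among those called lower, 5 had none in any 3xTg-AD mouse. Processed copies and other pseudogenes made up 20 of the 118 genes called higher (16.9%), 6 of the 101 called lower (5.94%) and 6.68% of all genes tested. The count rests on the 3 C57BL/6 mice: it was 86 without mouse U, 57 without mouse V and 133 without mouse X. It was 59 with the mitochondrial share as a covariate, 575 with DESeq2 and 433 with sample weights in limma voom, which split 167 higher and 266 lower.

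The strongest differences were close to presence against absence. Klk1b22, a member of the kallikrein family of serine proteases, measured 21.7 CPM at its lowest, 38.2 at the median and 59.3 at its highest in the 3xTg-AD mice, and had no read in mice U, V and X. With each C57BL/6 library set at a floor of 3 reads, Klk1b22 was at least 352-fold higher (adjusted p = 1.27e-06). BC018473 on chromosome 11 ran from 13.6 to 26.4 CPM (median 22.2) in 3xTg-AD mice, again with no read in a C57BL/6 mouse, and was at least 194-fold higher (adjusted p = 9.71e-07). Every 3xTg-AD mouse stood far above every C57BL/6 mouse in both genes.

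Npy, which encodes the peptide transmitter neuropeptide Y, was read at 116 to 285 CPM in 7 of the 8 3xTg-AD mice and at 0.156 CPM in mouse AM. The C57BL/6 mice had no Npy read, so that mouse AM lay with them and the other 3xTg-AD mice did not. Over all 8 mice the difference was called (adjusted p = 0.00559), without mouse AM more strongly (adjusted p = 1.17e-06), and it was not called with sample weights in voom (adjusted p = 0.387) or with the mitochondrial share as a covariate (adjusted p = 0.0541).

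Josd2, a deubiquitinating enzyme, ran from 119 to 287 CPM (median 194) against 3.96, 3.96 and 5.41 CPM, a difference of 5.47 ± 0.39 (SE, adjusted p = 2.16e-06). Gdpd3, a phosphodiesterase that acts on lysophospholipids, measured 53.3 to 143 CPM against 0, 0 and 0.326 CPM. Glrx, the thiol oxidoreductase glutaredoxin, was 177 to 556 CPM (median 390) against 37.7, 34.8 and 29.2 CPM, higher by 3.52 ± 0.44 (adjusted p = 0.000525). In these 3 genes the lowest 3xTg-AD mouse lay above the highest C57BL/6 mouse.

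Among the genes lower in 3xTg-AD mice, Apoe, the lipid carrier apolipoprotein E, measured 3.31 CPM at its lowest, 7.70 at the median and 11 at its highest, against 105, 71.2 and 108 CPM in mice U, V and X. The difference was -3.69 ± 0.30 (adjusted p = 7.24e-06), and the groups lay far apart. F2rl2, a protease-activated receptor that takes part in thrombin signalling, was 0.916 to 5.14 CPM (median 2.97) against 69.8, 106 and 44.9 CPM (-4.63 ± 0.42, adjusted p = 2.31e-05). Acp1, a low molecular weight tyrosine phosphatase, was 2.38 to 11.5 CPM against 122, 134 and 62.5 CPM (-4.10 ± 0.40, adjusted p = 3.65e-05). Dut, which removes dUTP from the nucleotide pool, and Idua, the lysosomal iduronidase, were lower by 3 log2 units or more, at -3.09 ± 0.33 and -4.17 ± 0.49. Fgfrl1, a receptor of the fibroblast growth factor family, held 26 reads in the 8 3xTg-AD mice together against 648 in the 3 C57BL/6 mice.

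A group of 16 strain genes that the study had named from its sham mice was called here in full, 9 higher and 7 lower, and stayed so without any single mouse. That list was drawn from other mice of the same colonies, and none of the 11 mice were in its selection, although its genes were known when they were chosen here. With voom, 8 of the 16 were called higher and 7 lower. With the mitochondrial share as a covariate, 8 were again called higher and 7 lower.

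**Figure D1:**
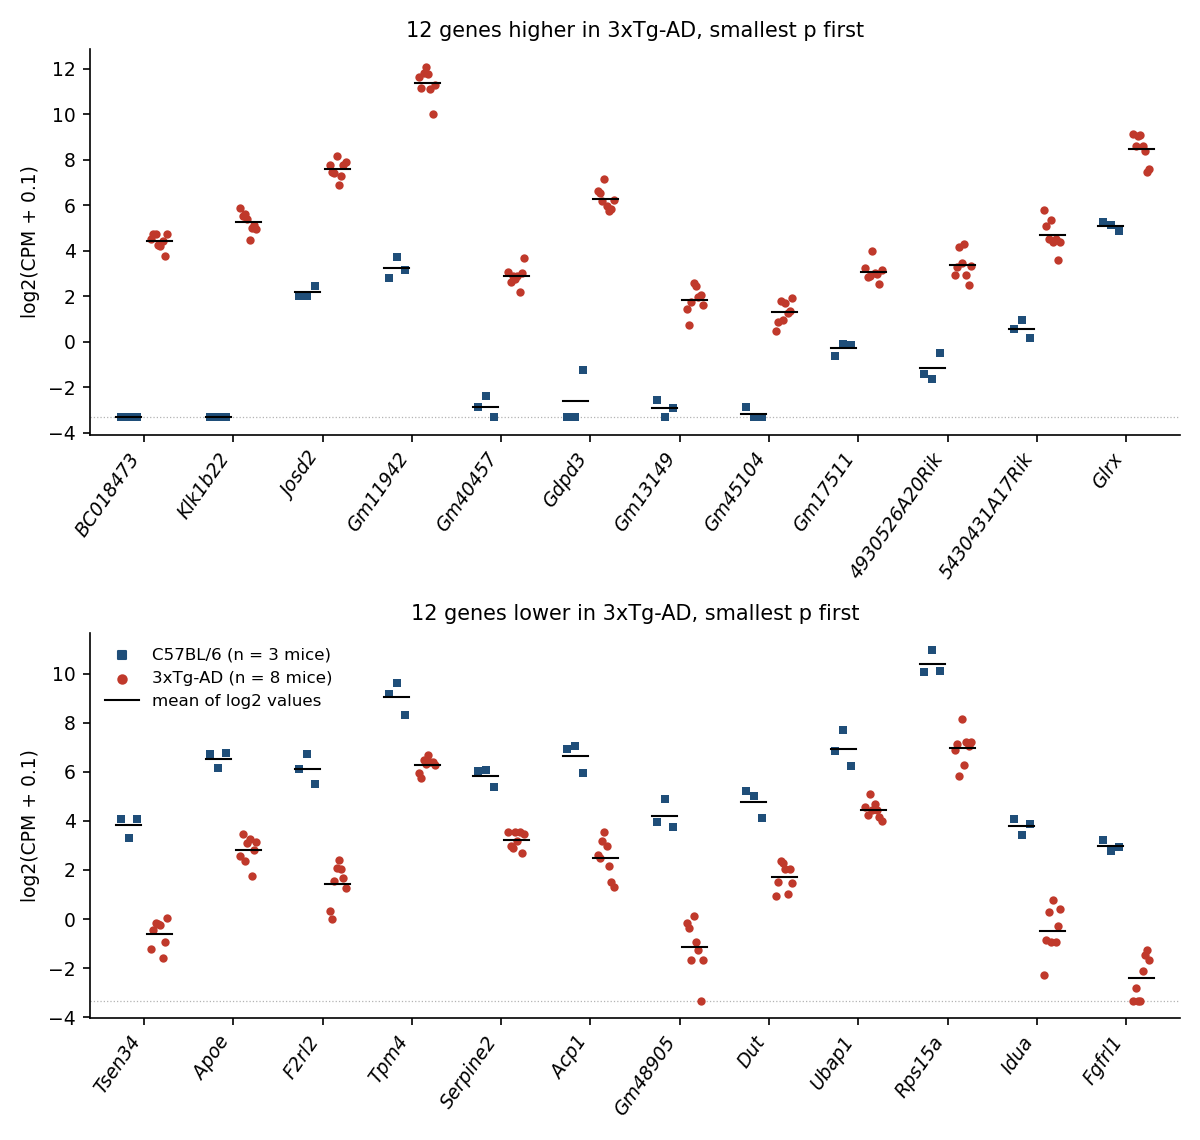
Levels of the 12 leading genes called higher (top) and the 12 called lower (bottom), as log2 of CPM after adding 0.1, with 1 point for each mouse and the mean of the log2 values as a bar. The 8 3xTg-AD and 3 C57BL/6 mice lie apart in these genes, Apoe for example at 3.31 to 11 against 71.2 to 108 CPM.

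Several of the largest differences concerned genes and their near-identical copies. Processed copies of a messenger RNA, written back into the genome elsewhere, can differ from the parent gene at only a few bases, and a short read from the 3' end may then be assigned to either. Here 34 of the 219 genes called shared at least 15% of their 25-base words with another gene of the table. The partner's fold change had the opposite sign in 16 of the 34 and the same sign in the others. How many of all genes tested have such a partner was not measured. The parent Tsen34, a subunit of the endonuclease that splices transfer RNA precursors, and its copy 4930526A20Rik are a pair of opposite sign. Rps15a, a protein of the small ribosomal subunit, likewise goes against 3 of its copies. Aligned coding stretches of these genes are given in lower case, with each base of a copy that differs from the parent in capitals. They are the gap-free stretches with the most differing positions, Rps15a-ps8 not being counted in that choice, and not the 3' ends. The parent stretch of Tsen34 lies at chr7:3694672-3694761 on the plus strand and that of 4930526A20Rik at chr17:28076196-28076285 on the minus strand, all in GRCm38. The stretch of Rps15a spans 2 exons on the minus strand of chromosome 7, between 118114834 and 118115167. The copies are read from the minus strand at chr11:6172873-6172962, chr5:105797550-105797639 and chr4:53791293-53791382.
Tsen34: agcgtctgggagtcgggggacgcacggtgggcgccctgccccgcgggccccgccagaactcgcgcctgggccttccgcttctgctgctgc
4930526A20Rik: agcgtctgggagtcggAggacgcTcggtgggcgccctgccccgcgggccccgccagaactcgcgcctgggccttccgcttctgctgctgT
Rps15a: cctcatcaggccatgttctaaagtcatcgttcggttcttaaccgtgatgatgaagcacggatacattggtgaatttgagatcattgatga
Rps15a-ps6: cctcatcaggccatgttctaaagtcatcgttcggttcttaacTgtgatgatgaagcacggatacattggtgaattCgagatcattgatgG
Rps15a-ps5: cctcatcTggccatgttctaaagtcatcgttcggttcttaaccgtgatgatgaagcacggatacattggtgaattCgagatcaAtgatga
Rps15a-ps8: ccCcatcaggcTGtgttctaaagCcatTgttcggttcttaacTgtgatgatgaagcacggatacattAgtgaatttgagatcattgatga

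Over the whole coding sequence 4930526A20Rik matched Tsen34 in 925 of 938 aligned bases (98.6%), and the last 90 coding bases were identical. After the stop codon 291 of 295 aligned bases matched. Tsen34 measured 0.235 to 0.920 CPM (median 0.685) in the 3xTg-AD mice against 17.0, 9.83 and 16.8 CPM in the C57BL/6 mice, a difference of -4.59 ± 0.36. 4930526A20Rik went the other way, at 5.52 to 19.5 CPM (median 9.79) against 0.278, 0.222 and 0.619 CPM, a difference of 4.85 ± 0.55 (adjusted p = 0.000177). The groups did not overlap in either gene. When the reads of both genes were summed, the level was 5.94 to 20.2 CPM against 17.2, 10.1 and 17.4 CPM, the groups overlapped, and the difference was -0.36 ± 0.36 (adjusted p = 0.773).

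Rps15a was 57.2 to 288 CPM (median 136) in 3xTg-AD mice and 1078, 1993 and 1091 CPM in C57BL/6 mice. Its copy Rps15a-ps6, which matched it in 388 of 393 coding bases (98.7%), was higher in 3xTg-AD mice at 152 to 498 CPM against 32.1, 54.4 and 33.3 CPM (2.64 ± 0.40, adjusted p = 0.00298). Rps15a-ps5 and Rps15a-ps8 were also called higher, at 1.87 ± 0.43 and 4.46 ± 0.66. Rps15a-ps5 was called in 8 of 20 settings and lost its call without any 1 of the 3 C57BL/6 or of 5 3xTg-AD mice. Rps15a-ps8 was less alike, matching Rps15a in 357 of 387 aligned coding bases (92.2%). The sum over the family of 5 genes remained lower in 3xTg-AD mice, at 273.7 to 851 CPM against 1116, 2060 and 1135 CPM (-1.75 ± 0.32, adjusted p = 0.0130).

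The remaining families fell on either side. Gm11942, at 1030 to 4339 CPM against 6.85, 13.2 and 8.66 CPM, shares sequence with Rplp1, a protein of the ribosomal stalk. Rplp1 itself was 361 to 2739 CPM against 3491, 6629 and 3438 CPM (-2.26 ± 0.48), with a call kept in 5 of 11 fits that each left out a mouse. Their family of 5 genes summed to 1660 to 7168 CPM against 3545, 6746 and 3518 CPM, with a difference of -0.27 ± 0.38 (adjusted p = 0.854). The pair of Gm10036 and the ribosomal protein gene Rpl11 summed to a difference of -0.59 ± 0.27 (adjusted p = 0.372). Tropomyosin 4, Tpm4, stayed lower after its copy was added (-2.82 ± 0.27, adjusted p = 3.95e-05), as did the natural killer receptor pair Klrc1 and Klrc2 (-1.99 ± 0.37, adjusted p = 0.0148). Of 25 families with 57 genes, 6 were called after summing, and 24 of the 35 genes called within families lay in families that were not. Over all genes, with these families summed, 175 were called, 90 higher and 85 lower.

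**Figure D2:**
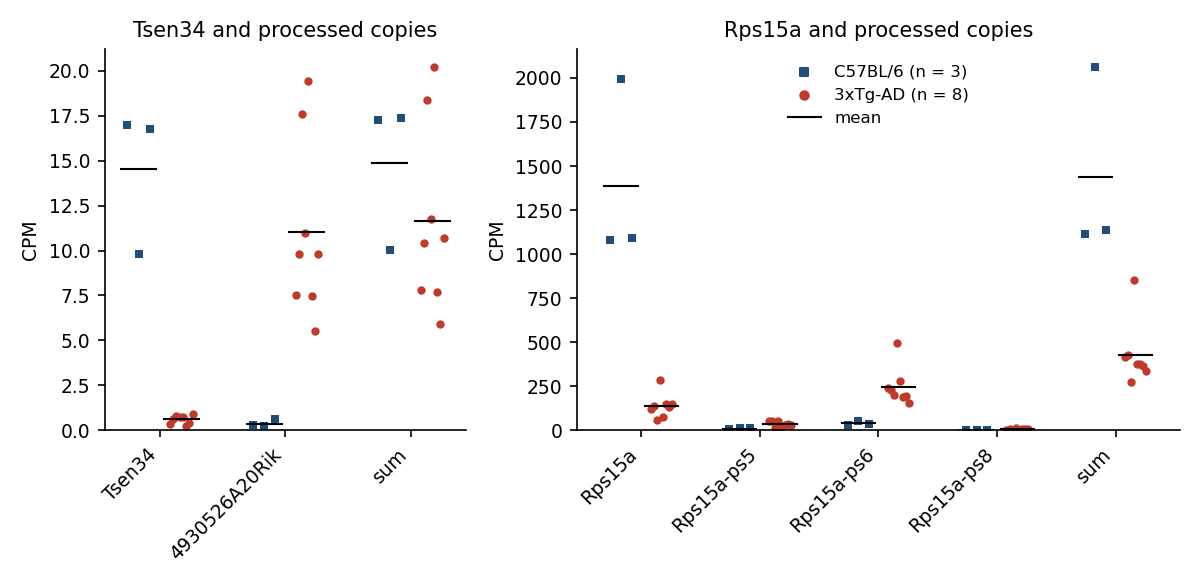
Levels in CPM on a linear axis for the parent genes Tsen34 and Rps15a, their copies and the sum of the genes shown, with 1 point for each mouse and the mean as a bar. The parent and the copy move in opposite directions between the strains, while the sum of Tsen34 and 4930526A20Rik overlaps (5.94 to 20.2 against 10.1 to 17.4 CPM).

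Several granule genes of neutrophils were higher in 3xTg-AD mice. These genes are made in waves as the cells mature in bone marrow: Ngp, Camp, Ltf and Lcn2 encode proteins stored in the secondary granules, Mmp8 encodes the neutrophil collagenase, and Ly6g encodes the surface protein by which mouse neutrophils are recognised. Factors of the C/EBP family take part in switching them on. The promoters of Ngp, Ltf and Mmp8 are printed because a match to TTGCNNAA, or its reverse complement TTNNGCAA, lies in the 120 bases before the gene start in each. They are the RefSeq sequences of GRCm38.p6, written in the direction of the gene with the match in capitals, at chr9:110419688-110419807, chr9:111019172-111019291 and chr9:7558309-7558428 on the plus strand.
Ngp: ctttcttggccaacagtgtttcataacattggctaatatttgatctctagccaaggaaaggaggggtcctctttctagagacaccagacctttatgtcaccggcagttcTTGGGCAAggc
Ltf: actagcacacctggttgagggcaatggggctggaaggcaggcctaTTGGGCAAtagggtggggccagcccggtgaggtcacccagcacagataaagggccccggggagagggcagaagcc
Mmp8: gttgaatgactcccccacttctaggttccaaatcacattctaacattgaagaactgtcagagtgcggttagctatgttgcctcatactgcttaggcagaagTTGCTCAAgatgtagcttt

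Within 250 bases before the gene start, on either strand, these letters were found in 5 of the 6 genes (not in Camp), and in 10.8% of 27025 genes with a promoter in the RefSeq table.

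Ngp, neutrophilic granule protein, measured 62.4 CPM at its lowest, 208 at the median and 1603 at its highest in the 3xTg-AD mice against 3.27, 1.82 and 3.26 CPM in mice U, V and X, a difference of 7.25 ± 1.19 that lost its call without mouse V. Camp, the antimicrobial cathelicidin, was 31.8 to 941 CPM (median 168) against 2.64, 3.43 and 2.21 CPM (6.72 ± 1.16). Ltf, the iron-binding lactotransferrin, was 14.9 to 360 CPM (median 59.9) against 1.599, 1.07 and 1.53 CPM (6.05 ± 1.10, adjusted p = 0.0106), and lost its call without mouse U, V or X. The 8 mice spread over more than a factor of 10 among themselves in each of these 3 genes, with mice M and N lowest and mouse AL highest, and still none reached down to the C57BL/6 mice.

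Lcn2, the siderophore-binding lipocalin, was 27.0 to 385 CPM against 5.46, 3.38 and 9.997 CPM (4.44 ± 0.88, adjusted p = 0.0180). Ly6g was higher by 4.19 ± 0.90 and Mmp8 by 2.89 ± 0.65, the call of Mmp8 being lost without any 1 of 6 mice, 3 of them 3xTg-AD. Wfdc21, a protein with a whey acidic domain as found in protease inhibitors, was 51.0 to 634 CPM against 23.0, 22.6 and 26.5 CPM (3.29 ± 0.70). The call of Wfdc21 was lost without mouse U, V or X. The abundant calcium-binding S100a8 was 1378 CPM at its lowest and 12627 CPM at its highest against 742, 921 and 1172 CPM, without passing the test (2.29 ± 0.64, adjusted p = 0.103).

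All 14 neutrophil markers had a positive fold change, with a median of 1.63 where the median over all genes tested was 0.07, and 4 passed the test (Camp, Lcn2, Ly6g and Mmp8). Their summed level was 3740 to 31778 CPM in 3xTg-AD mice and 2379 to 2947 CPM in C57BL/6 mice. The calls depend on the C57BL/6 mice: none of the 14 passed without mouse U or without mouse V and 1 passed without mouse X, while the fold change of Camp stayed between 6.17 and 6.91 whichever mouse was left out. With the mitochondrial share as a covariate none of the 4 was called and the differences were smaller, at 3.28 for Camp, 2.06 for Lcn2, 1.44 for Ly6g and 0.66 for Mmp8, with adjusted p from 0.373 to 0.799. Ngp and Ltf were at 3.05 and 1.90 in that fit and were not called either.

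Surface receptors and secreted proteins of phagocytes were also among the genes called higher, named here after their values were seen. The formyl peptide receptors Fpr1 and Fpr2, which sense bacterial peptides, were 9.97 to 49.4 against 1.65 to 5.60 CPM and 50.6 to 145.9 against 8.86 to 11.3 CPM, with differences of 2.86 ± 0.56 and 3.02 ± 0.39. Cd14, the co-receptor for bacterial lipopolysaccharide, was 3.83 to 24.4 CPM against 1.70, 0.801 and 0.977 CPM (3.07 ± 0.60). C5ar1, the receptor of the complement fragment C5a, was higher by 2.10 ± 0.40, and Clec4n, which encodes the fungal receptor Dectin-2, by 2.81 ± 0.46. Il1rn, the interleukin 1 receptor antagonist, was 21.9 to 68.2 CPM against 11.3, 11 and 14.8 CPM (1.89 ± 0.36, adjusted p = 0.0143), the only gene called among 14 tested genes of innate inflammation. The Toll-like receptor Tlr2 was higher by 1.78 ± 0.51 and did not pass (adjusted p = 0.113). Fpr2 held its call without any single mouse. Fpr1 and Cd14 lost theirs without mouse U, V or X, C5ar1 and Il1rn without mouse U or V, and Clec4n without mouse V. Among 14 monocyte markers Cd14 alone was called. Of 21 peptidase regulators that the study had drawn from its sham mice, 4 were called higher, Ngp, Ltf, Wfdc21 and Crim1, with a median of 0.76 over the list. Crim1 lost its call without mouse U or V.

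Eosinophil granule genes were low in C57BL/6 blood. Prg2, the major basic protein, was 6.29 to 79.5 CPM (median 16.7) in 3xTg-AD mice against 0.452, 0.4005 and 0.782 CPM, higher by 5.66 ± 0.96 (adjusted p = 0.00732). The eosinophil ribonucleases Ear1 and Ear6, named after their values were seen, were higher as well, Ear1 by 5.96 ± 0.97 and Ear6 by 6.30 (adjusted p = 0.00548 and 0.0101). Ear1 shares sequence with Ear2, and the sum of that pair was not called (2.31 ± 0.58, adjusted p = 0.0746). The eosinophil peroxidase Epx had no read in C57BL/6 mice and up to 1.30 CPM in 3xTg-AD mice, without a call (adjusted p = 0.208). Of 11 eosinophil and basophil markers Prg2 alone passed, and the median over them was 0.07. Prg2 and Ear6 lost their calls without mouse U or V, and Ear1 without mouse V.

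**Figure D3:**
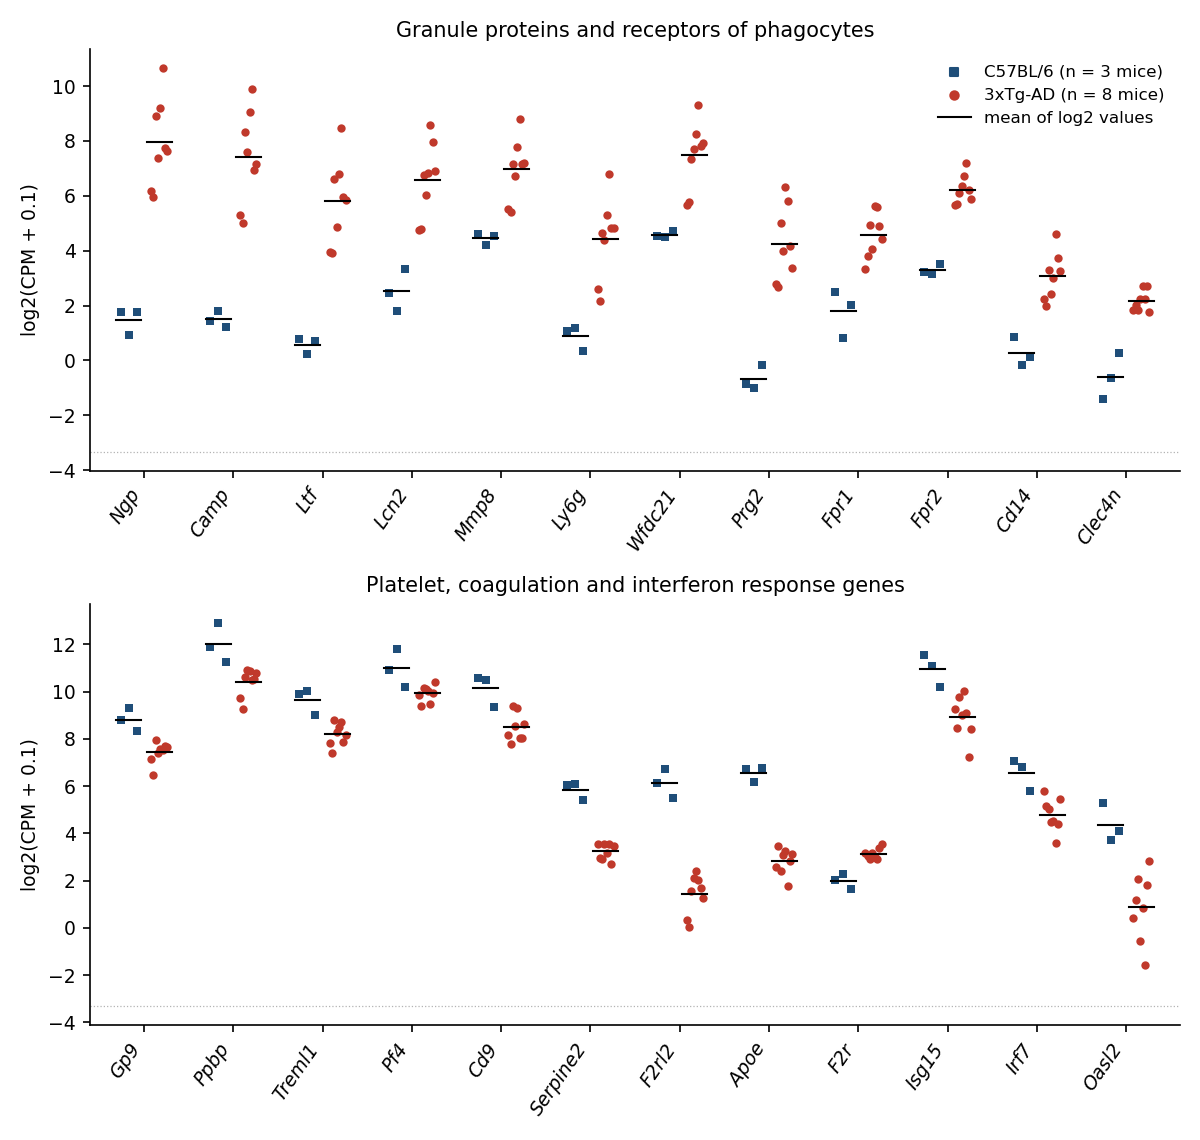
Levels of granule and receptor genes (top) and of platelet, coagulation and interferon genes (bottom), as log2 of CPM after adding 0.1, with 1 point for each mouse and the mean of the log2 values as a bar. Granule genes such as Ngp (62.4 to 1603 against 1.82 to 3.27 CPM) lie higher in the 8 3xTg-AD mice, and the called platelet genes Gp9, Ppbp and Treml1 and interferon genes Isg15, Irf7 and Oasl2 lie lower.

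A few platelet genes were called lower in 3xTg-AD mice. Platelets carry little RNA of their own, inherited from megakaryocytes, and all 16 platelet markers had a negative fold change, with a median of -0.96, of which 3 passed the test. Ppbp, the precursor of the platelet chemokine CXCL7, was 615 to 1902 CPM (median 1514) against 3735, 7611 and 2435 CPM (-1.68 ± 0.37, adjusted p = 0.0341). Gp9, a subunit of the receptor for von Willebrand factor, was 89.4 to 248 CPM against 439, 624 and 327 CPM (-1.37 ± 0.29, adjusted p = 0.0249). Treml1, a receptor of platelet alpha granules, was 168 to 446 CPM against 941, 1043 and 519 CPM (-1.44 ± 0.31, adjusted p = 0.0287). The groups did not overlap in these 3 genes, mouse V was highest and mouse X lowest among the C57BL/6 mice, and the summed level of the 16 was 1898 to 4591 CPM against 5392 to 12616 CPM. Ppbp also lost its call without any 1 of 5 3xTg-AD mice and Treml1 without 1 of them. None of the 16 passed without mouse U, without mouse V, or with the haemoglobin or the mitochondrial share as a covariate.

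Of 9 coagulation genes that the study had drawn from its sham mice, 8 had a negative fold change and 4 were called lower, Apoe, F2rl2, Serpine2 and Cd9. Serpine2, a serpin that inhibits thrombin, was 6.36 to 11.8 CPM against 65.7, 67.1 and 42.0 CPM (-2.61 ± 0.25, adjusted p = 3.28e-05). Cd9, a tetraspanin abundant on platelets, was 218 to 672 CPM against 1520, 1437 and 645 CPM, so that the highest 3xTg-AD mouse overlapped mouse X (-1.63 ± 0.36, adjusted p = 0.0358). Apoe, F2rl2 and Serpine2 held their call without any single mouse and under every setting tried, whereas Cd9 lost it under 9 of 21. Among the thrombin receptors, F2r was higher where F2rl2 was lower, at 7.45 to 11.5 CPM against 3.93, 4.72 and 3.03 CPM (1.18 ± 0.27, adjusted p = 0.0378). Cytoskeletal genes that platelets express, named after their values were seen, were lower too: Myl9, the regulatory myosin light chain, at -1.90 ± 0.29, Csrp1 at -1.97 ± 0.35 and Actn4 at -1.57 ± 0.35. Of these Myl9 held its call without any single mouse, while Csrp1 lost it without mouse U or V, and Actn4 and F2r without mouse U, V or X and without several 3xTg-AD mice.

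Interferon-stimulated genes, which cells switch on through the ISGF3 and IRF factors, gave 3 calls among 20, each lower in the transgenic mice, and the list's median was -0.44. Isg15, the ubiquitin-like modifier, was 152 to 1034 CPM (median 534) against 2975, 2167 and 1175 CPM (-1.93 ± 0.43, adjusted p = 0.0378). Irf7, a factor that amplifies the response, was 11.8 to 54.6 CPM against 132, 112 and 55.1 CPM (-1.71 ± 0.37, adjusted p = 0.0317). Oasl2, related to the oligoadenylate synthetases, was 0.235 to 7.03 CPM against 39.3, 12.9 and 16.9 CPM (-3.19 ± 0.64, adjusted p = 0.0207). The highest 3xTg-AD mouse lay just under mouse X in Irf7 and below all C57BL/6 mice in the other genes. Isg15 and Irf7 each lost their call without any 1 of 4 3xTg-AD mice. No gene of the 20 passed without mouse U or without mouse V, or with either covariate, and the summed level overlapped, at 4385 to 11930 CPM against 7495 to 10675 CPM. The promoter of Isg15 is printed for its 3 overlapping matches to a pair of GAAA with any 2 bases between them, the repeat to which these factors bind, shown as a run of capitals (RefSeq, GRCm38.p6, minus strand, chr4:156200819-156200938). The same pair, or its reverse complement of TTTC with 2 bases between, was in 3.46% of genes within 250 bases before the start, and not in Irf7 or Oasl2.
Isg15: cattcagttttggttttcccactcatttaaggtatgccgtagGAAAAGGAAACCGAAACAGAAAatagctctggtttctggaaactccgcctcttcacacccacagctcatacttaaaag

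Lymphoid genes gave few calls. Cd79b, a signalling chain of the B cell receptor, was 31.5 to 71.5 CPM against 126, 125 and 120 CPM (adjusted p = 0.0311), and was the only call among 15 B cell markers, of which 14 had a negative fold change (median -0.74). Their summed level was 345 to 707 CPM in 3xTg-AD mice and 743 to 875 CPM in C57BL/6 mice. Klrk1, the activating receptor NKG2D, was 0.379 to 2.67 CPM against 6.53, 5.74 and 5.76 CPM (-2.16 ± 0.47, adjusted p = 0.0311), the only call among 14 natural killer markers (median -0.55). In the gene families of killer cell lectin-like receptors, which differ between mouse strains in gene content, Klra17 was higher (2.86 ± 0.55) and Klrc1 lower (-1.93 ± 0.38) among 14 tested, with a median of -1.83. Trdc, the constant region of the T cell receptor delta chain, was 9.56 to 69.0 CPM against 3.61, 1.74 and 2.12 CPM (3.52 ± 0.60, adjusted p = 0.00732). Among 16 T cell markers, 14 had a positive fold change and none passed edgeR's test, with 3 at an unadjusted p under 0.05 and none called by DESeq2. Over all genes tested, 12.7% had an unadjusted p under 0.05. All 10 genes of MHC class II had a negative fold change (median -0.67), with no call in edgeR, 3 at an unadjusted p under 0.05 and 1 called by DESeq2. Markers of plasma cells (8) and genes of MHC class I (13) gave no call in edgeR or DESeq2, with 0 and 1 at an unadjusted p under 0.05. Cd79b and Klrk1 lost their calls without mouse U, V or X and also without 1 and 3 of the 3xTg-AD mice, Klrc1 without mouse U or V, Klra17 without mouse V or X and Trdc without mouse V.

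Genes of the red cell lineage gave few calls. Klf1, the erythroid transcription factor, was 5.54 to 19.6 CPM against 1.74, 2.45 and 2.47 CPM (2.37 ± 0.44, adjusted p = 0.0131), the only call among 18 erythroid markers, whose summed levels of 15400 to 38279 CPM and 20999 to 34218 CPM overlapped. None of the 9 haemoglobin genes or 12 genes of haem synthesis was called by edgeR or DESeq2, with 2 and 3 of them at an unadjusted p under 0.05, where 12.7% of all genes tested were. Hba-a1 ranged from 6343 to 149876 CPM among the 3xTg-AD mice, after a depletion step aimed at it. Mki67, a marker of dividing cells, was 35.5 to 78.4 CPM against 9.07, 13.9 and 21 CPM (1.96 ± 0.33), while Rrm2, a subunit of ribonucleotide reductase, was lower at 1.20 to 2.88 CPM against 10.2, 8.32 and 6.71 CPM (-2.04 ± 0.33). Mki67, Rrm2 and Trdc were named after their values were seen. Klf1 lost its call without mouse U, V or X and Mki67 without mouse U or V.

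Genes tied to the model or to stimulation gave few calls. Among 23 genes of amyloid processing and Alzheimer's disease risk Apoe alone was called. The mouse App gene was 12.2 to 61.7 CPM against 21.5, 9.17 and 19.0 CPM (1.10 ± 0.50, adjusted p = 0.369), and Mapt and Thy1 were not called either. None of 14 immediate early genes was called by edgeR, with 2 at an unadjusted p under 0.05 and 2 called by DESeq2, and none of 9 glucocorticoid response genes by either, with none at an unadjusted p under 0.05. Of all genes tested, 12.7% were under that unadjusted p. Of 10 autophagy genes from the study none was called by edgeR, 2 had an unadjusted p under 0.05 and 1 was called by DESeq2. The study had drawn that list from genes higher in its sham 3xTg-AD mice, which included prefrontal sham mice. In the hippocampal sham mice alone, 8 were called higher, which the selection favours, and 2 lower, against its direction. Of 25 genes that the study had tied to tDCS in 3xTg-AD mice, a selection that used these 8 mice, 2 were called higher, Rnf123 (2.11 ± 0.38) and Mical3 (2.02 ± 0.41), and neither passed without mouse U, without mouse V or without mouse X. Crat, carnitine acetyltransferase, from the same list was 38.7 to 104 CPM against 21.9, 23.5 and 30.9 CPM and did not pass (1.23 ± 0.31, adjusted p = 0.0654).

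Of 24 genes of the mitochondrial genome tested, 3 were called (12.5%, against 1.4% of all genes tested). These were the transfer RNA genes mt-Tf, mt-Tl2 and mt-Tc, all lower in 3xTg-AD mice. mt-Tl2 was 2.11 to 35.4 CPM against 61.3, 106 and 191 CPM (-2.66 ± 0.61, adjusted p = 0.0426), and kept its call in 5 of 11 fits that each left out a mouse, as did mt-Tf, while mt-Tc kept it in 8 of 11. Their share of reads is part of the mitochondrial share that differed between the strains in these mice.

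**Figure D4:**
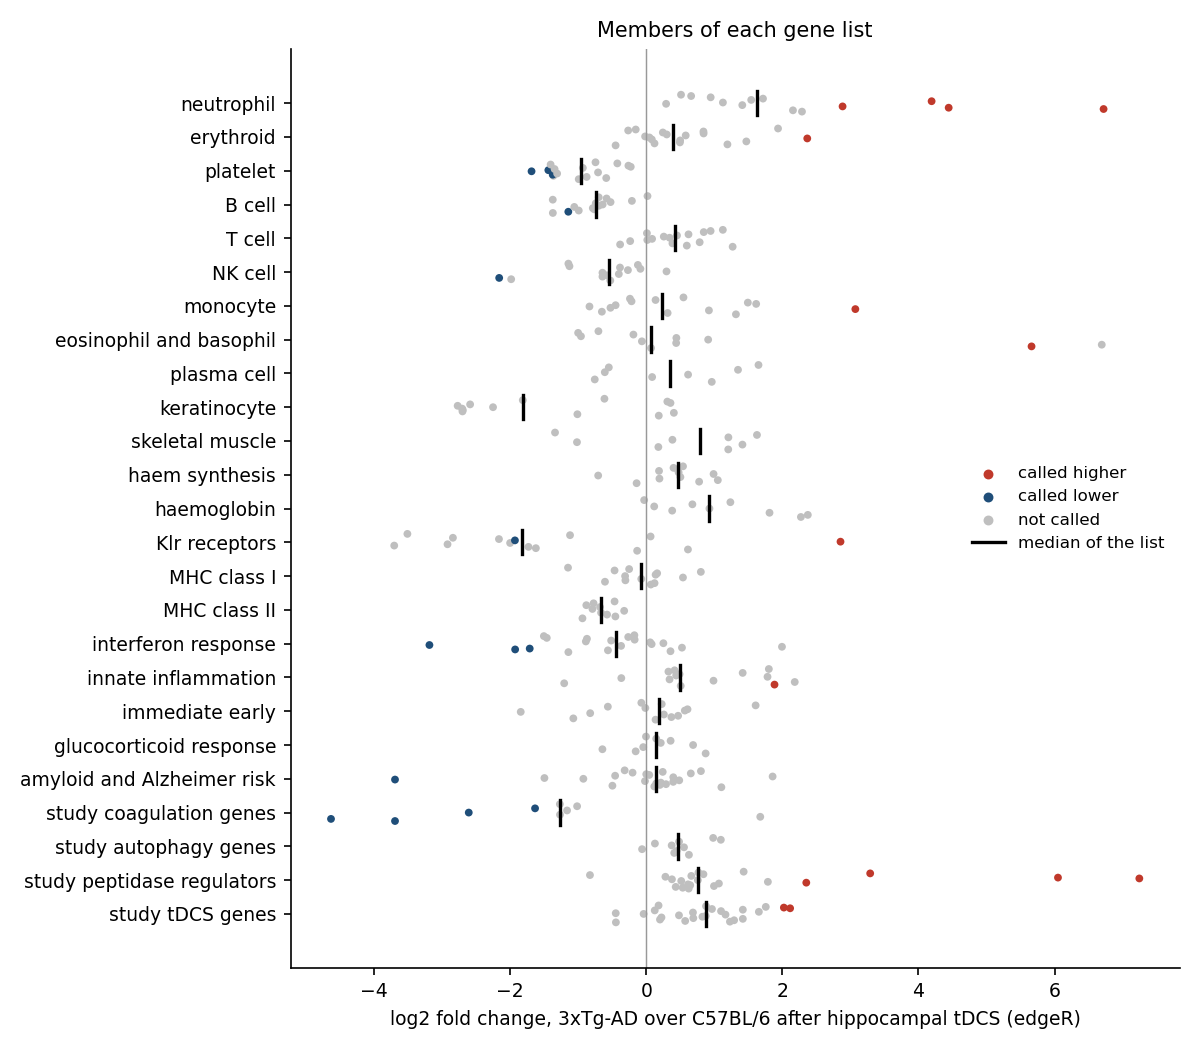
Fold changes of the members of each gene list on the log2 scale, with 1 point for each gene, red where called higher, blue where called lower and grey where not called, and a bar at the median of the list. All 16 platelet markers lie below 0 (median -0.96) and all 14 neutrophil markers above 0 (median 1.63), against a median of 0.07 over all genes tested.

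The strain difference after hippocampal tDCS was then set beside the strain difference in mice not used so far, to ask whether it belonged to stimulated mice. In 5 3xTg-AD and 6 C57BL/6 mice of 6 months under hippocampal sham, 1233 of 15612 genes (7.9%) were called, 738 higher (4.73%) and 495 lower (3.17%). Of the 219 genes called after tDCS, 216 had the same direction in sham mice and 173 were called there, which is 79.0% of the 219 and 14.03% of the 1233, and none was called in the opposite direction. Over all 15606 genes tested in both, 66.4% had the same direction. Pearson's r between the fold changes was 0.947 across the 219 genes, which were selected by their call, and 0.417 across all genes tested in both, and genes are not independent replicates. In 6 and 4 mice under prefrontal tDCS, where 3.07% of 15500 genes were called (2.45% higher and 0.626% lower), 209 of 215 had the same direction and 114 were called (53.0% of the 215, 23.9% of the 476), where 57.6% of all genes tested in both had the same direction. In 3 and 3 mice of 3 months, where 0.373% of 15544 genes were called (0.174% higher and 0.199% lower), 193 of 217 had the same direction and 39 were called (18.0% of the 217, 67.2% of the 58), where 56.2% of all genes had the same direction.

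Without stimulation, several of the leading genes lay on the same side in mice of 6 months. Apoe was 2.48 to 27.4 CPM in sham 3xTg-AD mice against 47.8 to 131 CPM in sham C57BL/6 mice, and F2rl2 was 1.41 to 3.96 CPM against 30.9 to 106 CPM. Ngp was 56.9 to 794 CPM against 0 to 5.57 CPM, and the summed neutrophil markers were 2175 to 12274 CPM against 622 to 3036 CPM. In the sham mice of 3 months the neutrophil markers ran the other way, with 11 of 14 negative, a median of -0.82 and sums of 1643 to 2489 CPM in 3xTg-AD against 2778 to 7352 CPM in C57BL/6 mice, although 1 of the 14 was called higher there. Npy was read at 387 CPM at its highest among sham 3xTg-AD mice and at 0 at its lowest. Keratinocyte markers, which mark skin cells, had a median fold change of -1.81 here and 1.23 in sham mice, with no call here (6 of 13 at an unadjusted p under 0.05, as were 12.7% of all genes tested, and 2 called by DESeq2).

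**Figure D5:**
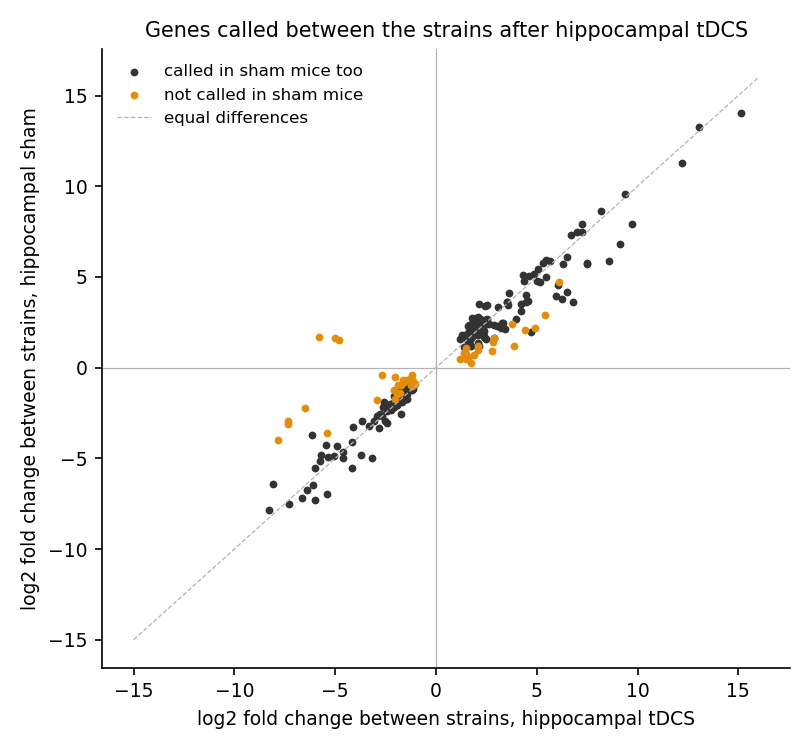
Log2 fold change of 3xTg-AD over C57BL/6 after hippocampal tDCS (horizontal) against that under hippocampal sham (vertical), with 1 point for each of the genes called after tDCS, dark where called in sham mice too and orange where not, and a dashed line of equal differences. In 216 of 219 genes the direction is the same.

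The difference of the differences was tested directly. The strain by stimulation term over the 22 hippocampal mice of 6 months called 0 of 15613 genes (0.0%) in edgeR and 0 in DESeq2, with 856 at an unadjusted p under 0.05. Where no gene differs, a share of about 0.05 of the genes is predicted under that threshold, and counts were not tested against it. The strain by site term over 21 tDCS mice called 0 of 15612 genes in edgeR, with 1407 at an unadjusted p under 0.05, and 16 in DESeq2. In the study's methods the sites also differ in number and length of sessions. Site and sessions cannot be told apart in this term or in the prefrontal comparison above. The intervals of these terms are wide: for Ngp the strain difference after tDCS exceeded that under sham by -0.25 ± 1.40, for Camp by -0.62 ± 1.36, for Apoe by -0.74 ± 0.61 and for F2rl2 by -0.01 ± 0.63 on the log2 scale. In data simulated with known changes, the stimulation term recovered 93 of 100 genes with a log2 difference of 3. It recovered 2 of 100 with a difference of 1, so a difference of a size near 1 was not detectable with these mice. The site term recovered fewer at a difference of 3, 73 of 100, and 3 of 100 at a difference of 1. The simulation gave all genes the same dispersion and changed only genes well covered by reads. Genes of wider spread or fewer reads can be missed at larger sizes. Terms of -7.48 for Klk6 and -6.69 for Defb4 were not called in edgeR (adjusted p = 0.617).

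The leading genes of the stimulation term all had an adjusted p of 0.617. Egr3, an immediate early transcription factor, was 0.182 to 0.999 CPM in 3xTg-AD mice against 1.39, 2.05 and 3.26 CPM after tDCS, and 0.501 to 5.06 CPM against 0.455 to 2.02 CPM under sham, a term of -3.14 ± 0.74. St3gal2, a sialyltransferase, was 8.44 to 26.9 CPM against 18.5, 13.7 and 23.1 CPM after tDCS and 27.9 to 39.2 CPM against 8.05 to 19.2 CPM under sham (-1.55 ± 0.38). Zfp974, Aqp8, Elovl5 and Acad8 had positive terms. Among the leading genes of the site term, Ly6g6c, a member of the Ly6 family, was also called after hippocampal tDCS (7.54 to 18.0 CPM against 37.7, 48.1 and 45.5 CPM, -1.88 ± 0.27), with a term of 2.01 ± 0.45 and an adjusted p of 0.498.

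Of the 46 genes called after tDCS and not under sham, 3 had the opposite sign there: Klk6, Defb4 and Them5, genes of surface epithelia, named after their values were seen. Klk6, a kallikrein protease, was at most 0.0799 CPM in 3xTg-AD mice against 0.209, 0.845 and 1.73 CPM, which are 6, 19 and 53 reads. Defb4, a beta-defensin, was at most 0.160 CPM against 1.29, 0.356 and 3.71 CPM, and Them5, a thioesterase, at most 0.212 CPM against 0.869, 0.0890 and 3.26 CPM. Mouse X was highest in all 3, and their adjusted p without it was 0.112, 0.219 and 0.385. Klk6 also lost its call without mouse V and Defb4 without mouse U. Them5 kept its call in 2 of 11 fits that each left out a mouse. The keratinocyte markers summed to 19.5 to 1291 CPM in the 3xTg-AD mice and 159 to 805 CPM in the C57BL/6 mice, and their part in these calls was not tested.

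By position, the genes called were spread over the chromosomes. Windows with the highest shares are given, where 1.4% of all genes tested were called, and clustering was not tested. In windows of 2 Mb with at least 10 tested genes, of which there were 602, the highest share was at 2 to 4 Mb of chromosome 8, where 5 of 21 genes (23.8%) were called. Mcoln1, an ion channel of lysosomes, Mcemp1, a membrane protein of mast cells and other myeloid cells, and Gm39121 were higher there, while the C-type lectins Clec4g and Cd209a were lower. Mcemp1 was 44.1 to 135 CPM against 15.3, 13.9 and 17.6 CPM (2.10 ± 0.37). Clec4g was 0.104 to 1.86 CPM against 7.37, 7.79 and 2.96 CPM (-2.94 ± 0.56), and Cd209a held 11 reads in the 8 mice against 129 in the 3. Mcoln1, Mcemp1 and Clec4g lost their calls without mouse U or V, and Cd209a without mouse U, V or X. The window at 16 to 18 Mb of chromosome 17 held Fpr1 and Fpr2. Windows on chromosome 1 at 78 to 80 Mb (Wdfy1 and Serpine2, both lower), chromosome 12 at 16 to 18 Mb (Lpin1 lower, Odc1 higher), chromosome 14 at 78 to 80 Mb (Dgkh and Olfm4) and chromosome 8 at 56 to 58 Mb (Hpgd and Gm45356) followed, each with 18.2%.

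At a few genes a single 3xTg-AD mouse departed from the other mice of its group. Gm10036, the copy that shares sequence with Rpl11, was 316 to 597 CPM in 6 of the mice, 91.2 CPM in mouse N and 5.95 CPM in mouse M, next to 9.04, 8.90 and 5.57 CPM in the C57BL/6 mice. Rpl11 was the mirror image, at 395 CPM in mouse M, 311 CPM in mouse N and 9.79 to 25 CPM in the other mice, against 586, 896 and 497 CPM in C57BL/6 mice. Pcsk4, a proprotein convertase, was 0 to 0.0541 CPM in 7 mice and 0.213 CPM in mouse Z against 0.904, 0.490 and 0.586 CPM. Ccnb1ip1, a factor of meiotic crossing over, was 0.240 to 1.10 CPM in 7 mice and had no read in mouse AM, as in the C57BL/6 mice.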

How the data were processed

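The authors depleted globin RNA from whole blood, prepared 3' libraries (QuantSeq, Ion Torrent), trimmed reads with cutadapt 1.14, aligned them to mm10 with STAR 2.6 and deposited counts, whole-number reads per gene that are not normalised. The strand setting of the counting is not given in the sources used here, so reads of overlapping antisense genes cannot be told apart. All 42 columns were matched to samples by title. Nothing in the labels ties replicate numbers across groups or states separate litters, so p-values measure the spread between these mice.

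Genes with at least 1 read over the mice fitted were tested with edgeR 4.0.16 (TMM, quasi-likelihood, Benjamini-Hochberg, R 4.3.3) in the 8 and 3 mice, with interaction terms over 22 and 21 mice. DESeq2 1.42.0 and limma 3.58.1 served as alternatives. Library shares were compared by exact permutation. Gene positions are from GENCODE M21 (15607 of 15613 identifiers found). Genes named are the 12 of smallest p called higher and the 12 called lower, the 16 strain genes of the study, up to 6 per list with the smallest p and every called member, the 6 leading genes of each interaction, genes at which a single 3xTg-AD mouse departs, and genes of the leading windows. The members and lists were chosen with earlier results of these data known. Summing genes of shared sequence, leaving out mitochondrial genes and the mitochondrial covariate were added after seeing the data. On simulated data the strain test recovered 98 of 100 genes with a log2 change of 3 and 13 of 100 with a change of 1, with 4 false calls. The simulation gave all genes the same dispersion and changed only genes well covered by reads. The floor of 3 reads covers counting error only. An allele of the line and its mouse counterpart are not reported here.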

Additional observations from a re-analysis of the deposited data

Results flagged for a closer look

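Within the 8 3xTg-AD mice, 67 values were set against the other mice of the group by Dixon's rule, which chance alone exceeds in about 1 of 20 groups, and 3 lay apart. Npy in mouse AM had a log2 CPM of -2.09 (0.156 CPM against 116 to 285 CPM in the other 7), which places it with the C57BL/6 mice. Cttnbp2, a cortactin-binding protein and 1 of the 16 strain genes of the study, had a log2 CPM of 5.42 in mouse T (42.9 CPM against 4.87 to 13.2 CPM in the others, and 0.104 to 0.488 CPM in C57BL/6 mice), so that its strain difference of 5.29 ± 0.79 includes a mouse well above its group. Mcemp1 had a log2 CPM of 7.08 in mouse AL (135 CPM against 44.1 to 73.2 CPM), the mouse that was also highest for the granule genes Ngp, Camp and Ltf.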

How the results depend on the processing

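The count of 219 genes was 211 with DESeq2's size factors in edgeR, 218 with filterByExpr and 214 without haemoglobin genes. It was 575 with DESeq2 (290 higher, 285 lower), 433 with voom weights (167 higher, 266 lower), 323 in a fit of all 42 mice, 160 with the haemoglobin share as a covariate (107 higher, 53 lower) and 59 with the mitochondrial share (39 higher, 20 lower). Of the 219, 215 were also called with DESeq2, 140 with the haemoglobin and 43 with the mitochondrial covariate. Leaving out a mouse gave 57 to 244, the lowest without mouse V (86 without U, 133 without X). The strain by stimulation term stayed at 0 without any mouse (0 to 0), and the strain by site term gave 16 with DESeq2 and 0 to 1 without a mouse. Under sham the count was 781 to 1272 without a mouse. Under prefrontal tDCS it was 1072 with DESeq2 and 224 to 691 without a mouse, and at 3 months 488 with DESeq2 and 18 to 657. The difference in haemoglobin share was 6.89 to 11.5 percentage points without a mouse. No result reversed. Of the values for single genes and lists, 5337 kept their direction and side of the threshold, 427 lost and 86 gained the call, and 99 moved otherwise. The causes were not tested. With 3 C57BL/6 mice, changes near 1 on the log2 scale are mostly not detectable. No paired analysis was possible because the replicate numbers are names in accession order and pair no mice.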
